A study of Saccharomyces cerevisiae with 4 samples.

Results

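The comparison set 85 cells of *Saccharomyces cerevisiae* grown with mycophenolic acid (MPA) against 233 cells grown with DMSO alone, which are 318 of the 844 cells measured by yeastDrop-Seq. Cells were taken by their deposited sample label, and each gene's Unique Molecular Identifiers (UMIs) were added up within its library. Of 4777 genes, 2118 had UMIs in both libraries, and the 1322 of these with at least 50 UMIs in the pair of libraries together were compared. All cells were haploid BY4741 (MATa his3Δ1 leu2Δ0 met15Δ0 ura3Δ0), grown in a glucose minimal medium for 18 h. The MPA medium held 10 µM MPA and 10 µM DMSO, and the DMSO medium held 10 µM DMSO. The remaining libraries, MPA + Guanine (10 µM of MPA, of guanine and of DMSO) and Guanine (10 µM guanine without DMSO), are given beside them as levels. The Methods record slower growth of the MPA culture, so drug and growth rate cannot be told apart.

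MPA inhibits IMP dehydrogenase, the enzyme that commits inosine monophosphate to guanine nucleotide synthesis. Guanine nucleotides feed RNA synthesis, and most RNA made by a growing yeast cell is ribosomal RNA. Building a ribosome takes ribosomal proteins and a much larger set of assembly factors, which process the precursor ribosomal RNA in the nucleolus, modify it with small nucleolar ribonucleoproteins (snoRNPs) and export both subunits to the cytoplasm.

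yeastDrop-Seq captures the mRNA of single yeast cells on barcoded beads in droplets, and the UMI attached to a molecule lets its PCR copies be counted as 1. The MPA library held 102788 UMIs with a median of 1165 per cell, and the DMSO library held 311199 UMIs with a median of 1250 per cell. Levels are given as counts scaled to 1000000 UMIs per library (CPM), so that 1 UMI is worth 9.73 CPM in MPA and 3.21 CPM in DMSO. Each condition was measured in 1 library, so no test between conditions was possible. Every interval in brackets is an exact 95% interval, Poisson for a CPM and binomial for a log2 ratio, and covers counting error only. CPM are shares of the captured mRNA, so the mRNA content per cell was not measured. No cell barcode was shared between libraries. The mating-type genes fitted the strain label in part: *STE2*, the receptor for α-factor, stood at 272 CPM in MPA and 264 CPM in DMSO, and *MFA1*, a precursor of a-factor, at 700 CPM in MPA and 1022 CPM in DMSO, while *SAG1*, the α-agglutinin of MATalpha cells, was listed at 0 in MPA and had 7 UMIs in DMSO. *SAG1* was the only 1 of the 4 listed MATalpha-specific genes to appear among the genes measured. All 7 listed MATa-specific genes appeared there. A gene that is absent may have been filtered before deposit. Of the genes deleted in the strain only *HIS3* had UMIs, 28 in MPA and 77 in DMSO. The his3Δ1 allele is a partial deletion, so tags from the remaining sequence check nothing.

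Among the 1322 genes, 88 (6.66%) were at least 2-fold higher in MPA-treated cells and 55 (4.16%) at least 2-fold lower. These counts leave out 43 genes with at least 50 UMIs that were listed at 0 in MPA, against 0 such genes in DMSO. The rule thus leaves out genes absent from MPA on 1 side only, which bears on the split and on the median. The genes compared held 90.7% of the UMIs in MPA and 85.9% in DMSO. The log2 ratio of MPA over DMSO ran between -3.20 and 2.56, with a median of 0.13 and quartiles of -0.26 and 0.52. Scaling by TMM factors in place of library totals shifted all ratios down, to a median of 0.01, and left 56 genes higher and 67 lower, so the median of all genes is given beside list medians. Calls are made at 2-fold from equal CPM, and 56 of the 88 higher genes, those with a log2 ratio of at least 1.13, stay past 2-fold when the ratios are centred on the median. The counting interval of the log2 ratio lay above 0 for all 88 higher genes and below 0 for 51 of the 55 lower ones. For higher genes the 2-fold call at a minimum of 50 UMIs fixes this outcome, so it adds no support. The interval cleared the 2-fold line itself for 8 higher and 11 lower genes. Among genes with at least 100 UMIs in both libraries together and 5 in each, the highest ratios were those of *FPS1*, *HSP42* and the open reading frame *YGR069W*, and the lowest those of *PHD1*, *YNL143C* and *MTG1*.

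**Figure D1:**
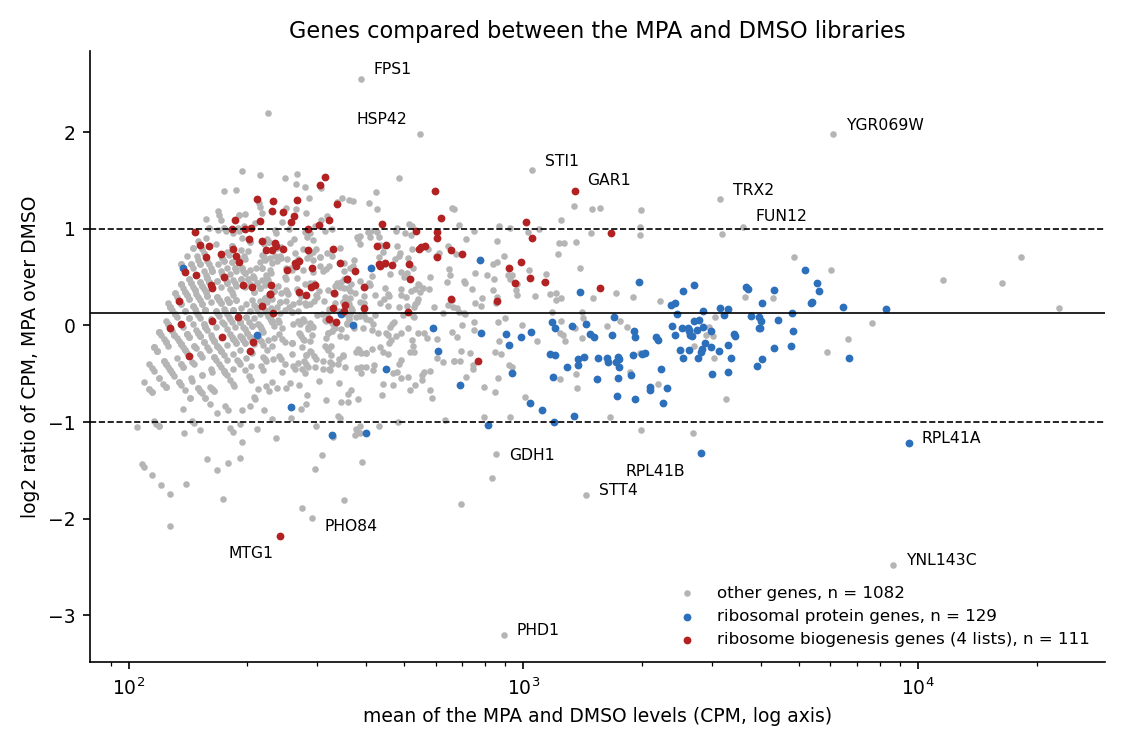
Each point is 1 of the 1322 genes, placed by the mean of its MPA and DMSO levels (CPM, log axis) and its log2 ratio of MPA over DMSO. Dashed lines mark 2-fold and the solid line the median of 0.13. The 111 ribosome biogenesis genes sit mostly above the median and the 129 ribosomal protein genes mostly below it.

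Ribosome assembly factors made up 21 of the 88 higher genes. The lists for the small subunit (SSU) processome, large subunit assembly, box C/D and H/ACA snoRNPs and RNA polymerase I held 111 compared genes without repeats. Of these 21 (18.9%) were past 2-fold higher, against 6.66% of all genes, 1 was past 2-fold lower, and 99 lay above the median of all genes. Their median log2 ratio was 0.65. They made up 23.9% of the higher genes and 8.40% of the genes compared. Some of the 21, *NUG1* (1.11) among them, lay below the log2 ratio of 1.13 and come within 2-fold when ratios are centred on the median.

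The SSU processome, the particle that folds and cuts the precursor of the small subunit RNA, had a median log2 ratio of 0.78 over 38 compared genes, 8 past 2-fold higher and none lower. Its summed level was 15459 CPM in MPA, 7948 CPM in MPA + Guanine, 5720 CPM in Guanine and 9450.5 CPM in DMSO, a log2 ratio of MPA over DMSO of 0.71 [0.62, 0.80]. The MPA library was thus the highest of the 4 for this list. *RRP5* (chrXIII:725934-731123, minus strand), which acts in the maturation of the RNA of both subunits, stood at 467 CPM [344, 619] in MPA, 114 CPM in MPA + Guanine, 129 CPM in Guanine and 161 CPM [119, 212] in DMSO, a log2 ratio of 1.54 [0.94, 2.14]. *FCF2* (chrXII:246324-246977, minus strand), a nucleolar factor of the same particle, had 341, 207, 161 and 151 CPM in MPA, MPA + Guanine, Guanine and DMSO, a log2 ratio of 1.17 [0.50, 1.83]. *UTP14*, which activates the helicase Dhr1 in the processome, had 720 CPM in MPA and 408 CPM in DMSO (0.82 [0.39, 1.24]). The lowest member was *SOF1*, another processome component, at 185 CPM in MPA and 222 CPM in DMSO (-0.26 [-1.08, 0.49]).

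Large subunit assembly followed with a median log2 ratio of 0.65 over 58 compared genes, 14 past 2-fold higher and 1 lower. The summed level was 26297 CPM in MPA, 12587 CPM in MPA + Guanine, 12839 CPM in Guanine and 16873 CPM in DMSO. Its members cover nucleolar, nuclear and cytoplasmic steps. Some of its higher genes, *CGR1* among them, are also in the SSU processome list and count in both. *CGR1* (chrVII:440063-440425, plus strand), a nucleolar protein for processing of the precursor RNA, had 866 CPM [695, 1066] in MPA, 279 CPM in MPA + Guanine, 295 CPM in Guanine and 331 CPM [270, 401] in DMSO, a log2 ratio of 1.39 [0.96, 1.81]. *LSG1* (chrVII:314631-316553, plus strand), a cytoplasmic GTPase of the last assembly steps, stood at 448 CPM [328, 597] in MPA, 89.3 CPM in MPA + Guanine and 164 CPM [122, 215] in DMSO and was listed at 0 in Guanine (1.45 [0.84, 2.05]). *NMD3*, the adaptor that carries the subunit through the nuclear pore, had 302, 132, 78.4 and 122 CPM in MPA, MPA + Guanine, Guanine and DMSO (1.30 [0.57, 2.03]). *NUG1*, a GTPase of nuclear export, was 2.16-fold higher (846 CPM in MPA and 392 CPM in DMSO).

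Other assembly factors were within 2-fold. *RRS1*, which brings the 5S ribonucleoprotein into the subunit, had 710 CPM in MPA and 360 CPM in DMSO (0.98 [0.53, 1.42]). The values of *DBP3*, an RNA helicase, were 700 CPM in MPA and 398 CPM in DMSO (0.81), those of *NOC2*, a nucleolar transport factor, 876 CPM in MPA and 524 CPM in DMSO (0.74), and those of *PXR1*, a nucleolar protein of rRNA processing, 827 CPM in MPA and 482 CPM in DMSO (0.78). The study's text names these last 4 genes, *UTP14*, *NUG1*, *CGR1* and *GAR1* from the same cells, so their direction is not independent evidence. The exception at the low end was *MTG1*, a GTPase for the mitochondrial rather than the cytoplasmic ribosome (below).

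The snoRNP list had a median of 0.42 over 12 genes, 1 past 2-fold higher. That gene was *GAR1* (chrVIII:282681-283298, minus strand), a core protein of the H/ACA particles that guide pseudouridylation of rRNA. *GAR1* stood at 1956 CPM [1694, 2245] in MPA, 475 CPM in MPA + Guanine, 498 CPM in Guanine and 746 CPM [653, 848] in DMSO, a log2 ratio of 1.39 [1.11, 1.67]. Its partner *CBF5*, the pseudouridine synthase, had 2208, 829, 678 and 1138 CPM in MPA, MPA + Guanine, Guanine and DMSO (0.96 [0.71, 1.20]), whereas *NOP10*, the smallest protein of the particle, had 671 CPM in MPA and 864 CPM in DMSO (-0.36 [-0.77, 0.02]). Members of 1 particle thus spread over the range of ratios. For RNA polymerase I the median was 0.64 over 6 genes, none past 2-fold, with *HMO1*, which binds ribosomal DNA, at 1372 CPM in MPA and 733 CPM in DMSO (0.90 [0.59, 1.21]). RNA polymerase III had 5 compared genes with a median of -0.14, 1 of them past 2-fold lower.

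Promoters of yeast ribosome assembly genes are known for a pair of sequence words, the PAC box (GATGAG) and the rRNA processing element RRPE (AAAAATTT). Windows of 30 bases around a PAC box of genes described above show it (build R64 of RefSeq, gene strand of the box given, PAC and any RRPE in capitals):
RRP5, chrXIII:731262-731291, minus strand: gAAAAATTTtaaGATGAGatgagctaaacc
LSG1, chrVII:314552-314581, plus strand: taataaagaggtGATGAGcttataagccaa
GAR1, chrVIII:283406-283435, minus strand: aAAATTTTTcgaGATGAGgaaaggaagaaa
CGR1, chrVII:439920-439949, plus strand: actggaaaaagcGATGAGataaaattttca
NUG1, chrV:162608-162637, plus strand: ttcgagcgaggcGATGAGatgagctaatta
FCF2, chrXII:247014-247043, minus strand: aatagaaaatgcGATGAGacgtcaagtttt
In *RRP5* and *GAR1* the RRPE, read on either strand, stands a few bases before the PAC box. The promoters of *LSG1*, *NUG1* and *FCF2*, as searched below, held an RRPE outside the stretch shown, and that of *CGR1* held none. A further PAC box that overlaps the one marked in *RRP5* and *NUG1* is left in lower case. The boxes shown lie 151 bases before the annotated start codon in *RRP5*, 120 in *GAR1*, 126 in *CGR1*, 98 in *NUG1*, 62 in *LSG1* and 49 in *FCF2*.

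The words were searched on both strands between 250 bases before and 50 bases after the annotated start of each gene, a window that holds the start codon. PAC was found in 20.3%, RRPE in 14.1% and both in 5.61% of 6026 promoters of the genome. Among the 1303 compared genes with a promoter searched, the same shares were 25.5%, 22.5% and 11.5%. Of the 111 assembly genes, 78.4% had both. The 150 compared genes with both words had a median log2 ratio of 0.60, 21 of them past 2-fold higher and none lower. The 828 genes with neither had a median of 0.03, 38 of them past 2-fold higher and 37 lower. The share past 2-fold higher with both words was above the 5.72% of compared genes without both and the 6.66% of all genes. Of the 21 higher genes with both words, 15 were in the 4 assembly lists. Outside the 4 assembly lists, 63 genes with both words had a median of 0.44 and 823 genes with neither had 0.03. Past 2-fold higher there were 6 of the 63 with both words and 38 of the 823 with neither. With PAC alone it was 12 of 167 and with RRPE alone 10 of 139. PAC alone was held by 182 genes (median 0.16, 17 higher and 10 lower) and RRPE alone by 143 (0.22, 11 higher and 3 lower). With either word alone the share past 2-fold higher lay nearer to the 6.66% of all genes than with both. Within the assembly lists the medians were alike with both words (0.64, 87 genes), PAC alone (0.66, 15 genes), RRPE alone (0.62, 4 genes) and neither (0.71, 5 genes). Other words searched in the same way were those of Gcn4 (TGACTC, 125 genes, median -0.08), Rpn4 (GGTGGCAA, 49 genes, 0.24), Msn2 and Msn4 (AGGGG, 283 genes, 0.08) and the heat shock element (TTCNNGAA, 189 genes, 0.15). In the genome these were held by 7.95%, 1.68%, 21.6% and 12.8% of promoters, in the same order, and past 2-fold higher were 7.20%, 10.2%, 5.30% and 10.6% of the compared genes that held them. A match is a description of the sequence and was not tested for binding.

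The ratio also moved with coding length. Across the 1303 compared genes with a RefSeq coding length, the median log2 ratio was -0.07 for 326 genes of 78 to 552 nt, 0.07 for 328 genes of 555 to 933 nt, 0.22 for 323 genes of 936 to 1455 nt and 0.34 for 326 genes of 1461 to 14733 nt, and Spearman's rho across genes was 0.28. Without ribosomal protein and assembly genes rho was 0.21. In the same order of classes, assembly genes had medians of 0.39 (9 genes), 0.59 (26), 0.54 (30) and 0.79 (46), against -0.03, 0.05, 0.19 and 0.26 in genes that encode neither assembly factors nor ribosomal proteins. Past 2-fold higher were 15 of the 46 assembly genes in the longest class and 1 of the 30 in the class of 936 to 1455 nt, where 19 of 289 other genes were. The part of length in the list values was not tested beyond these classes.

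**Figure D2:**
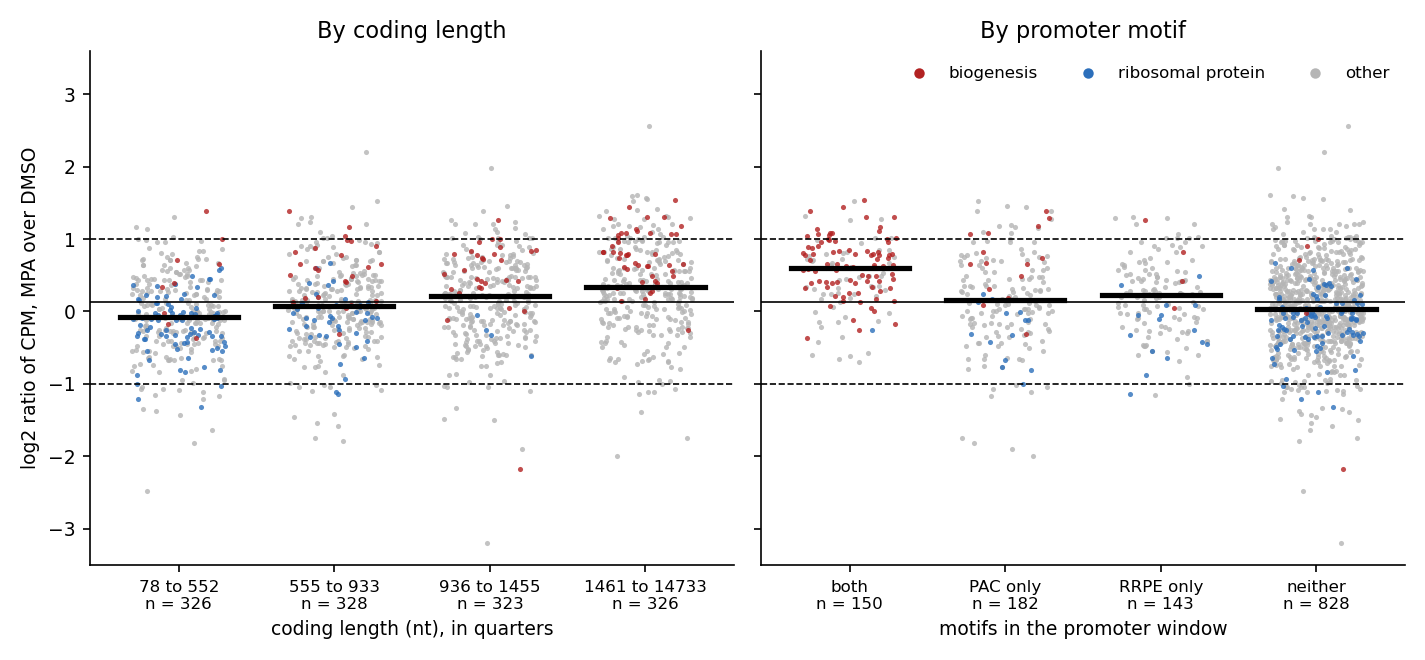
Log2 ratio of MPA over DMSO (vertical axis) for 1303 genes, by 4 classes of coding length in nucleotides (left) and by the PAC and RRPE words in the promoter window (right). Thick bars are medians, the thin solid line is the median of all genes and dashed lines mark 2-fold. The median is 0.34 in the longest class and 0.60 with both words.

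The machinery that charges and modifies tRNA stood higher as well. Of 22 aminoacyl-tRNA synthetases 19 were compared, with a median log2 ratio of 0.60, 3 past 2-fold higher and none lower. All 3, *ALA1*, *GLN4* and *CRS1*, lay below a log2 ratio of 1.13, so none stays past 2-fold when ratios are centred on the median. Their summed level was 12015 CPM in MPA, 7352 CPM in MPA + Guanine, 6809 CPM in Guanine and 8017 CPM in DMSO (0.58 [0.48, 0.68]). *ALA1*, the alanyl-tRNA synthetase, had 233 CPM in MPA and 109 CPM in DMSO (1.10 [0.28, 1.89]), and *GLN4*, the glutaminyl enzyme, had 331 CPM in MPA and 157 CPM in DMSO (1.07 [0.40, 1.73]). *SES1*, *THS1* and *VAS1*, for serine, threonine and valine, had log2 ratios of 0.60, 0.53 and 0.83. The study's text names these last 3 genes and *TRM1*, *ABP140*, *FUN12*, *TIF4631* and *GCD11* from the same cells.

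Among 11 tRNA modification genes the median was 0.66, with 4 past 2-fold higher and 1 lower. *TRM1*, which dimethylates a guanosine of tRNA, stood at 613 CPM [471, 784] in MPA, 218 CPM in MPA + Guanine, 129 CPM in Guanine and 235 CPM [184, 295] in DMSO (1.39 [0.88, 1.89]). *PUS1*, a pseudouridine synthase, had 574 CPM in MPA and 238 CPM in DMSO (1.27), and *TRM8*, of the 7-methylguanosine methyltransferase, had 379 CPM in MPA and 154 CPM in DMSO (1.30). *ABP140*, a tRNA 3-methylcytidine methyltransferase that also binds actin, had 691 CPM in MPA and 334 CPM in DMSO (1.05).

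Translation initiation factors split. The median log2 ratio was 0.38 over 22 genes, 4 past 2-fold higher and none lower, with 13 above the median of all genes. *FUN12*, encoding eIF5B, which joins the subunits, stood at 4835 CPM [4419, 5280] in MPA, 2441 CPM in MPA + Guanine, 1227 CPM in Guanine and 2388 CPM [2219, 2566] in DMSO (1.02 [0.85, 1.18]). *TIF4631*, encoding the scaffold eIF4G, had 924 CPM in MPA and 398 CPM in DMSO (1.21), *TMA22*, a ribosome recycling factor, 934 CPM in MPA and 405 CPM in DMSO (1.21), and *GCD11*, the gamma subunit of eIF2, 1168 CPM in MPA and 572 CPM in DMSO (1.03). Lower values were found for *PAB1*, the poly(A)-binding protein, with 652 CPM in MPA and 1048 CPM in DMSO (-0.68 [-1.09, -0.30]), and for *SUI3*, the beta subunit of eIF2 (-0.62). Among elongation factors *YEF3*, the fungal elongation factor 3, had 2598 CPM in MPA and 1353 CPM in DMSO (0.94), while *TEF1* and *TEF2*, near-identical genes of elongation factor 1A between which reads can be split, had -0.22 and -0.11.

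Ribosomal protein genes lay below the median of all genes, in contrast to the assembly factors. The small subunit genes had a median log2 ratio of -0.22 over 54 compared genes, 2 past 2-fold lower and none higher, and the large subunit genes had -0.08 over 75, with 4 lower and none higher. The 6 lower genes are 4.65% of the 129 ribosomal protein genes compared, near the 4.16% of all genes. The summed levels were 121610 CPM in MPA, 76932 CPM in MPA + Guanine, 149760 CPM in Guanine and 136000 CPM in DMSO for the small subunit. For the large subunit they were 183470, 111550, 211560 and 195900 CPM, listed as MPA, MPA + Guanine, Guanine and DMSO. The library lowest in these genes was MPA + Guanine, followed by MPA.

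The most abundant lower genes of this class were *RPL41A* and *RPL41B*, which encode the same very short protein of the large subunit. *RPL41A* (chrIV:130407-130484, minus strand) stood at 5701 CPM [5249, 6182] in MPA, 7523 CPM in MPA + Guanine, 14167 CPM in Guanine and 13226 CPM [12825, 13637] in DMSO, a log2 ratio of -1.21 [-1.34, -1.09]. *RPL41B* (chrIV:221724-221801, minus strand) had 1615, 2584, 5148 and 4039 CPM in MPA, MPA + Guanine, Guanine and DMSO (-1.32 [-1.56, -1.09]). Their coding sequences are shown because they differ at 1 of 78 bases, in capitals (98.72% identity, RefSeq R64), so that reads can be split between the copies:
RPL41A: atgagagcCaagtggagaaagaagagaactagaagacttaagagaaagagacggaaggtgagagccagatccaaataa
RPL41B: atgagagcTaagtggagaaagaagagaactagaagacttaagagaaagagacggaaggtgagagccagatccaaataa
Both copies were lower in both MPA-containing libraries than in Guanine and DMSO. *RPL10*, a single-copy gene whose protein joins the subunit last, had 253 CPM in MPA, 282 CPM in MPA + Guanine, 1753 CPM in Guanine and 546 CPM in DMSO (-1.11 [-1.77, -0.51]). *RPS29B* had 1644 CPM in MPA and 2876 CPM in DMSO (-0.81), and *RPS9A* 204 CPM in MPA and 450 CPM in DMSO (-1.14), each with a near-identical copy. Single ribosomal protein genes stood higher, such as *RPP2A*, of the stalk, with 6197 CPM in MPA and 4161 CPM in DMSO (0.57 [0.44, 0.71]). The study's text names *RPL41A*, *RPL41B* and *RPS29B* from the same cells.

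**Figure D3:**
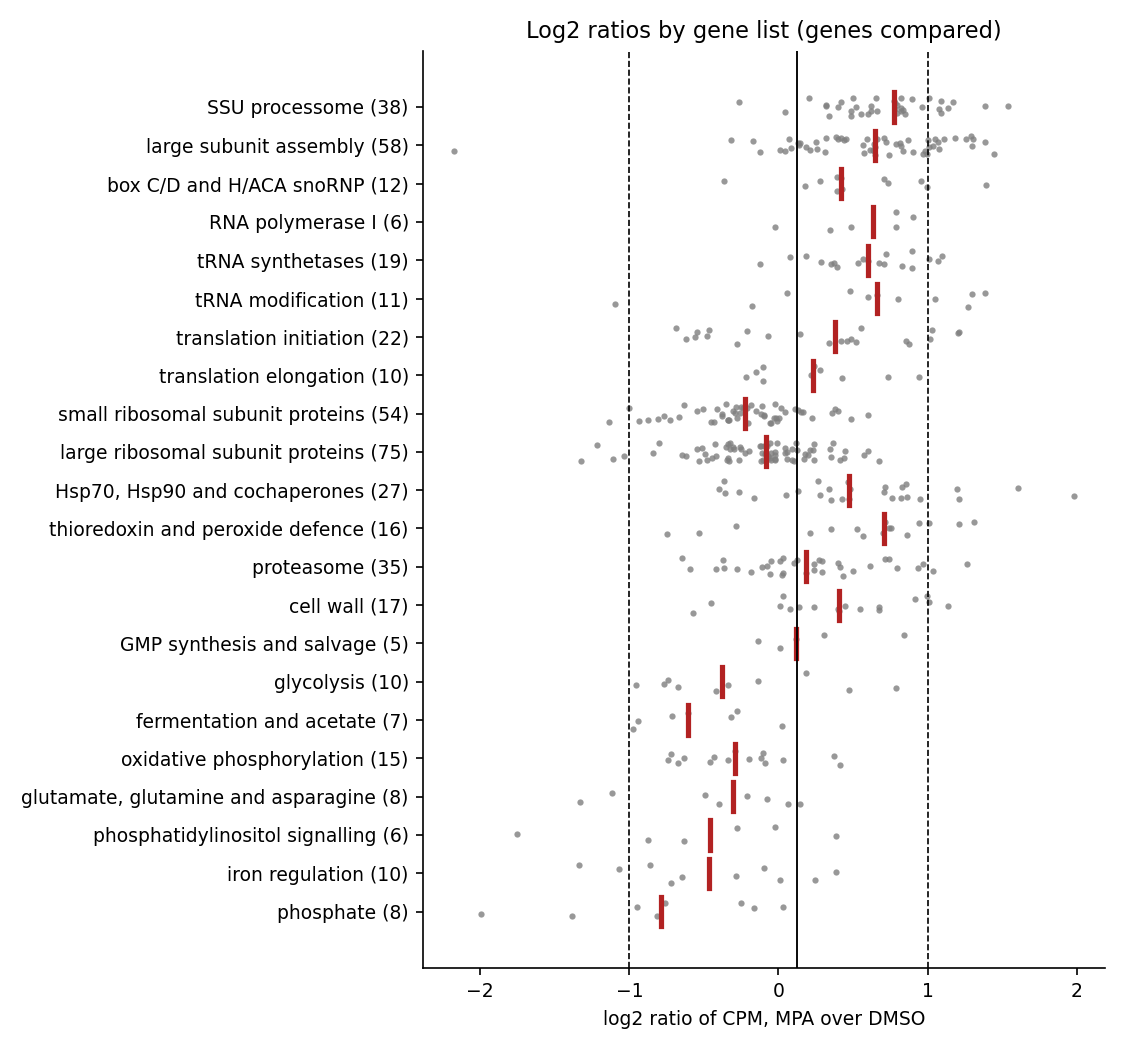
Log2 ratio of MPA over DMSO (horizontal axis) of each compared gene in 22 gene lists, with the number of genes in brackets. Thick bars are list medians, the solid line is the median of all genes and dashed lines mark 2-fold. Medians run between 0.78 for the SSU processome and -0.79 for the phosphate list.

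Chaperones and their cofactors stood higher in MPA-treated cells. The list of heat shock proteins 70 and 90 with their cochaperones had a median log2 ratio of 0.47 over 27 genes, 4 past 2-fold higher and none lower. *HSP42* (chrIV:806621-807748, plus strand), a small heat shock protein that sequesters misfolded proteins, had 876 CPM [704, 1076] in MPA, 1469 CPM in MPA + Guanine, 111 CPM in Guanine and 222 CPM [173, 281] in DMSO, a log2 ratio of 1.98 [1.51, 2.46]. *STI1* (chrXV:381053-382822, plus strand), which links both chaperones, had 1586, 1147, 304 and 521 CPM in MPA, MPA + Guanine, Guanine and DMSO (1.61 [1.28, 1.93]). For both genes each library with MPA was above each library without it. *ZUO1*, a cochaperone that works on the ribosome, had 2082 CPM in MPA and 900 CPM in DMSO (1.21), and *SSE1*, a nucleotide exchange factor for Hsp70, 1634 CPM in MPA and 903 CPM in DMSO (0.86). The Hsp70 gene *SSA1*, with a near-identical copy, had 282 CPM in MPA and 373 CPM in DMSO (-0.40 [-1.04, 0.20]).

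Proteasome genes were nearer to the median of all genes. Their median log2 ratio was 0.19 over 35 genes, 2 past 2-fold higher and none lower. *RPT4*, an ATPase of the cap, had 302 CPM in MPA and 125 CPM in DMSO (1.27 [0.54, 1.98]), and *PRE6*, a subunit of the core, had 924 CPM in MPA and 450 CPM in DMSO (1.04). *RPN4*, the transcription factor of these genes, had -0.42 [-1.25, 0.34]. In the cytosolic chaperonin TRiC, *CCT3* had 516 CPM in MPA and 209 CPM in DMSO (1.30 [0.75, 1.85]), while *CCT2*, another subunit of the ring, had -0.43 [-1.35, 0.41].

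Genes of thioredoxin and peroxide defence had a median log2 ratio of 0.71 over 16 genes, 3 past 2-fold higher and none lower. Their summed level was 45667 CPM in MPA, 32562 CPM in MPA + Guanine, 29506 CPM in Guanine and 27455 CPM in DMSO (0.73 [0.68, 0.79]). *TRX2* (chrVII:912913-913227, minus strand), a cytosolic thioredoxin, stood at 4495 CPM [4094, 4924] in MPA, 4021 CPM in MPA + Guanine, 3584 CPM in Guanine and 1812 CPM [1666, 1968] in DMSO (1.31 [1.13, 1.49]), so that DMSO was the low library and not MPA the only high one. *TRR1* (chrIV:1183299-1184258, plus strand), the reductase that recharges thioredoxin, had 2189 CPM [1912, 2494] in MPA, 851 CPM in MPA + Guanine, 996 CPM in Guanine and 945 CPM [840, 1059] in DMSO (1.21 [0.96, 1.47]). Here MPA was the high library. *TSA1*, the main peroxiredoxin, had 4203, 1808, 1836 and 2185 CPM in MPA, MPA + Guanine, Guanine and DMSO (0.94 [0.77, 1.12]), and *SOD2*, the mitochondrial superoxide dismutase, 253 CPM in MPA and 125 CPM in DMSO (1.01). The thioredoxin *TRX1* had 584 CPM in MPA and 845 CPM in DMSO (-0.53), and the glutaredoxin *GRX1* had 117 CPM in MPA and 196 CPM in DMSO (-0.75). *TRR1*, *TSA1*, *STI1* and *SSE1* are among the genes the study's text names from the same cells.

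**Figure D4:**
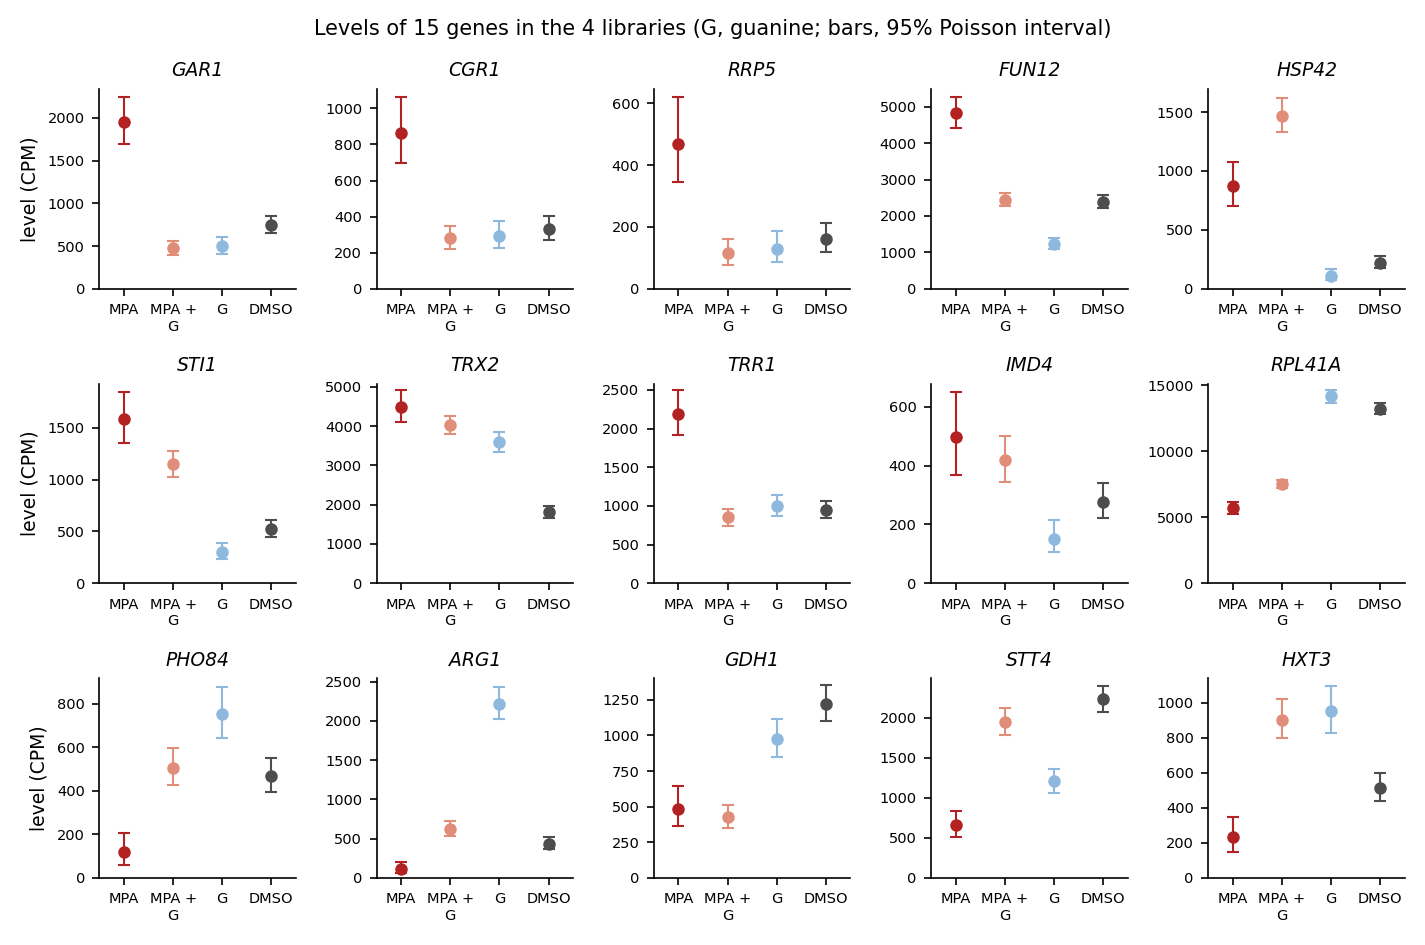
Levels in CPM (vertical axis, starting at 0 and scaled per gene) of 15 genes in the MPA, MPA + Guanine, Guanine and DMSO libraries, with 95% Poisson intervals. For *GAR1*, *CGR1*, *RRP5* and *TRR1* MPA is the high library, for *HSP42* and *STI1* both libraries with MPA are high, and for *TRX2* DMSO is the low library.

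In the pathway that MPA acts on, no gene that could be compared was past 2-fold. The list of GMP synthesis and salvage had 5 compared genes of 10 members, with a median log2 ratio of 0.12. *IMD4*, an IMP dehydrogenase, had 496 CPM [369, 652] in MPA, 418 CPM in MPA + Guanine, 152 CPM in Guanine and 276 CPM [221, 341] in DMSO (0.84 [0.32, 1.36]). *IMD3*, a further IMP dehydrogenase, had 175 CPM [104, 277] in MPA, 275 CPM in MPA + Guanine and 141 CPM [103, 190] in DMSO and was listed at 0 in Guanine. Its log2 ratio of MPA over DMSO was 0.31, and its CPM intervals in MPA and DMSO overlapped. *IMD2*, whose product is known to resist MPA, had 3 UMIs in MPA, 91 UMIs in MPA + Guanine and was listed at 0 in Guanine and DMSO. The 3 UMIs came from 2 of 85 cells, so *IMD2* was detected in MPA and its level there cannot be set against DMSO beyond counting error.

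For *GUA1*, *GUK1* and *XPT1* the intervals of the log2 ratio included 0. *GUA1*, the GMP synthase, had 233 CPM in MPA and 257 CPM in DMSO (-0.14 [-0.86, 0.53]), *GUK1*, the guanylate kinase, 418 CPM in MPA and 415 CPM in DMSO (0.01 [-0.52, 0.52]), and *XPT1*, of xanthine salvage, had 0.12 [-0.88, 1.03]. *HPT1*, which salvages guanine and hypoxanthine, had 14 UMIs in MPA and 33 in DMSO and fell under the minimum. A change smaller than these intervals could not be detected at this depth. De novo purine synthesis had 4 compared genes with a median of -0.36, none past 2-fold, and pyrimidine synthesis had 5 with a median of 0.00, among them *URA7*, a CTP synthase gene at 0.98, and its paralog *URA8*, with 321 CPM in MPA and 643 CPM in DMSO.

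Sugar metabolism held values on both sides. Glycolysis had a median log2 ratio of -0.38 over 10 genes, none past 2-fold, yet its summed level was 51095 CPM in MPA, 44081 CPM in MPA + Guanine, 31753 CPM in Guanine and 48352 CPM in DMSO (0.08 [0.03, 0.13]). Most of the sum came from the abundant *TDH3*, a glyceraldehyde-3-phosphate dehydrogenase, with 24186 CPM in MPA and 21260 CPM in DMSO (0.19), and *ENO2*, an enolase, with 13445 CPM in MPA and 9682 CPM in DMSO (0.47). *TPI1*, the triose phosphate isomerase, had 2413 CPM in MPA and 4100 CPM in DMSO (-0.77 [-0.97, -0.57]), and *PGI1*, the phosphoglucose isomerase, 233 CPM in MPA and 453 CPM in DMSO (-0.96). The same pathway thus had members with intervals above and below 0.

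Fermentation and acetate genes had a median of -0.60 over 7 genes, none above the median of all genes and none past 2-fold. *ALD6*, a cytosolic aldehyde dehydrogenase, had 1138 CPM in MPA, 3703 CPM in MPA + Guanine, 1218 CPM in Guanine and 2188 CPM in DMSO (-0.94 [-1.24, -0.66]), and *ALD4*, the mitochondrial one, had 428, 2198, 678 and 842 CPM in the same order (-0.98). Hexose transporters had 3 compared genes with a median of -1.07. *HXT3* stood at 233 CPM [150, 347] in MPA, 904 CPM in MPA + Guanine, 955 CPM in Guanine and 514 CPM [438, 600] in DMSO (-1.14 [-1.82, -0.51]), and *HXT2* at 243 CPM in MPA and 511 CPM in DMSO (-1.07). MPA was the low library for both. Against the larger DMSO subcluster, the larger of the groups the authors' clustering gave for that library, the ratios were -0.78 for *HXT3* and -0.69 for *HXT2*, within 2-fold.

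Lists of mitochondrial genes had few calls. Oxidative phosphorylation had a median of -0.29 over 15 genes, none past 2-fold and 2 above the median of all genes. Pyruvate entry and the TCA cycle had a median of -0.04 over 13 genes and mitochondrial carriers one of -0.07 over 15, each with 1 gene past 2-fold lower. *MPC2*, a subunit of the pyruvate carrier, had 1557 CPM in MPA, 3281 CPM in MPA + Guanine, 5042 CPM in Guanine and 2176 CPM in DMSO (-0.48 [-0.74, -0.23]), and *DPI8* had 1002 CPM in MPA and 1475 CPM in DMSO (-0.56). The study's text names both from the same cells. Against the larger DMSO subcluster *MPC2* had a ratio of -0.12, outside that counting interval. *CIT2*, the peroxisomal citrate synthase and a marker of retrograde signalling in yeast, had 156 CPM [89.0, 253] in MPA, 672 CPM in MPA + Guanine, 761 CPM in Guanine and 437 CPM [367, 517] in DMSO (-1.49 [-2.34, -0.74]). The mitochondrial ribosome list, at a median of 0.12 over 17 genes, lay at the median of all genes.

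In nitrogen metabolism the lists for branched-chain amino acids, for histidine and aromatic amino acids and for amino acid permeases had no gene past 2-fold, and the list for glutamate, glutamine and asparagine had 2 lower of 8. *ARG1*, the argininosuccinate synthetase, stood at 117 CPM [60.3, 204] in MPA, 622 CPM in MPA + Guanine, 2219 CPM in Guanine and 434 CPM [364, 513] in DMSO (-1.89 [-2.88, -1.04]). The other 5 compared genes of arginine and lysine synthesis were within 2-fold, between -0.34 for *LYS12* and 0.64 for *LYS20*. *GDH1*, the NADP-dependent glutamate dehydrogenase, had 486 CPM [361, 641] in MPA, 425 CPM in MPA + Guanine, 973 CPM in Guanine and 1224 CPM [1104, 1354] in DMSO (-1.33 [-1.79, -0.90]), and *DLD3*, a lactate dehydrogenase of the cytosol, had 243 CPM in MPA and 527 CPM in DMSO (-1.12). In sulfur metabolism *MET10*, of the sulfite reductase, had 272 CPM in MPA and 103 CPM in DMSO (1.41 [0.62, 2.18]) and *CYS3*, of cysteine synthesis, 1236 CPM in MPA and 614 CPM in DMSO (1.01 [0.67, 1.34]), within a list whose median was 0.06 over 14 genes.

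Phosphate uptake and storage had the lowest median of the lists with more than 3 genes, -0.79 over 8, with 2 past 2-fold lower and none above the median of all genes. *PHO84* (chrXIII:24037-25800, minus strand), the high-affinity phosphate transporter, had 117 CPM [60.3, 204] in MPA, 504 CPM in MPA + Guanine, 752 CPM in Guanine and 466 CPM [393, 548] in DMSO (-2.00 [-2.98, -1.15]). It overlaps a noncoding RNA gene in the annotation, and the strand used for counting is not given in the sources used here. *PHO89*, the sodium-coupled transporter, had 87.6 CPM in MPA and 228 CPM in DMSO (-1.38 [-2.57, -0.38]), and *VTC1*, of the polyphosphate polymerase, 632 CPM in MPA and 1221 CPM in DMSO (-0.95). Further subunits of the polymerase complex, *VTC3* (0.03) and *VTC4* (-0.16), had intervals that included 0.

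Iron regulation had a median of -0.47 over 10 genes, 2 past 2-fold lower. *FIT2*, a cell wall protein for siderophore uptake, had 175 CPM [104, 277] in MPA, 1147 CPM in MPA + Guanine, 729 CPM in Guanine and 443 CPM [373, 524] in DMSO (-1.34), and *ATX1*, a copper chaperone needed for iron uptake, had 136 CPM in MPA and 286 CPM in DMSO (-1.07). *SIT1*, a siderophore transporter, had 0.24 [-0.63, 1.06]. For lipid genes, *STT4*, a phosphatidylinositol 4-kinase of the plasma membrane, had 662 CPM [514, 839] in MPA, 1948 CPM in MPA + Guanine, 1204 CPM in Guanine and 2230 CPM [2067, 2402] in DMSO (-1.75 [-2.13, -1.39]). The list of phosphatidylinositol signalling had a median of -0.46 over 6 genes. In ergosterol synthesis, with a median of -0.17 over 10 genes, *ERG4* (-1.50) and *ERG3* (-1.02), of the late steps, were past 2-fold lower, and *NCP1*, the reductase partner, had 0.70.

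Further genes past 2-fold higher belonged to chromatin, the cell wall and drug efflux. *FPR4*, a nuclear proline isomerase that acts on histones, had 1887 CPM in MPA, 718 CPM in MPA + Guanine, 286 CPM in Guanine and 800 CPM in DMSO (1.24 [0.96, 1.51]), whereas the histone gene *HHF1*, with a near-identical copy, had 282 CPM in MPA and 450 CPM in DMSO (-0.67). *CTS1*, the chitinase of cell separation, had 438 CPM in MPA and 199 CPM in DMSO (1.14), and *UTH1* had 642 CPM in MPA and 318 CPM in DMSO (1.01). *FLR1*, a multidrug transporter, had 700, 818, 941 and 344 CPM in MPA, MPA + Guanine, Guanine and DMSO (1.03 [0.57, 1.47]), with DMSO the low library. The cell wall list, which does not hold *CTS1*, had a median of 0.41 over 17 genes. Past 2-fold higher in it were 2 genes, *UTH1* and *TOS6* (1.14). Cell cycle lists were small. The 3 G1/S genes had a median of 0.56 and the 2 G2/M genes one of -0.34, none past 2-fold. The 6 M/G1 genes had a median of 0.34, and 1 of them, *CTS1*, was past 2-fold higher. Of the general stress genes only 3 were compared, and *HOR7* had 1702 CPM in MPA and 3676 CPM in DMSO (-1.11 [-1.35, -0.88]).

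Shares of each cell's UMIs show how a list's level was spread over cells. The SSU processome took a median of 1.47% of a cell's UMIs in MPA and 0.87% in DMSO, and 68 of 85 MPA cells lay above the DMSO median. For thioredoxin and peroxide defence the medians were 4.57% in MPA and 2.69% in DMSO, with 79 of 85 MPA cells above the DMSO median, and for the chaperone list 3.09% in MPA and 1.92% in DMSO, with 78 of 85. Small subunit ribosomal proteins took 11.9% in MPA and 13.9% in DMSO, with 19 of 85 MPA cells above the DMSO median. In the glycerol list, which holds *FPS1*, the median share was 0.085% in MPA and 0.112% in DMSO, and 32 of 85 MPA cells lay above the DMSO median. The ranges of the libraries overlapped for every list shown. Cells of 1 library are not replicates of a condition.

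**Figure D5:**
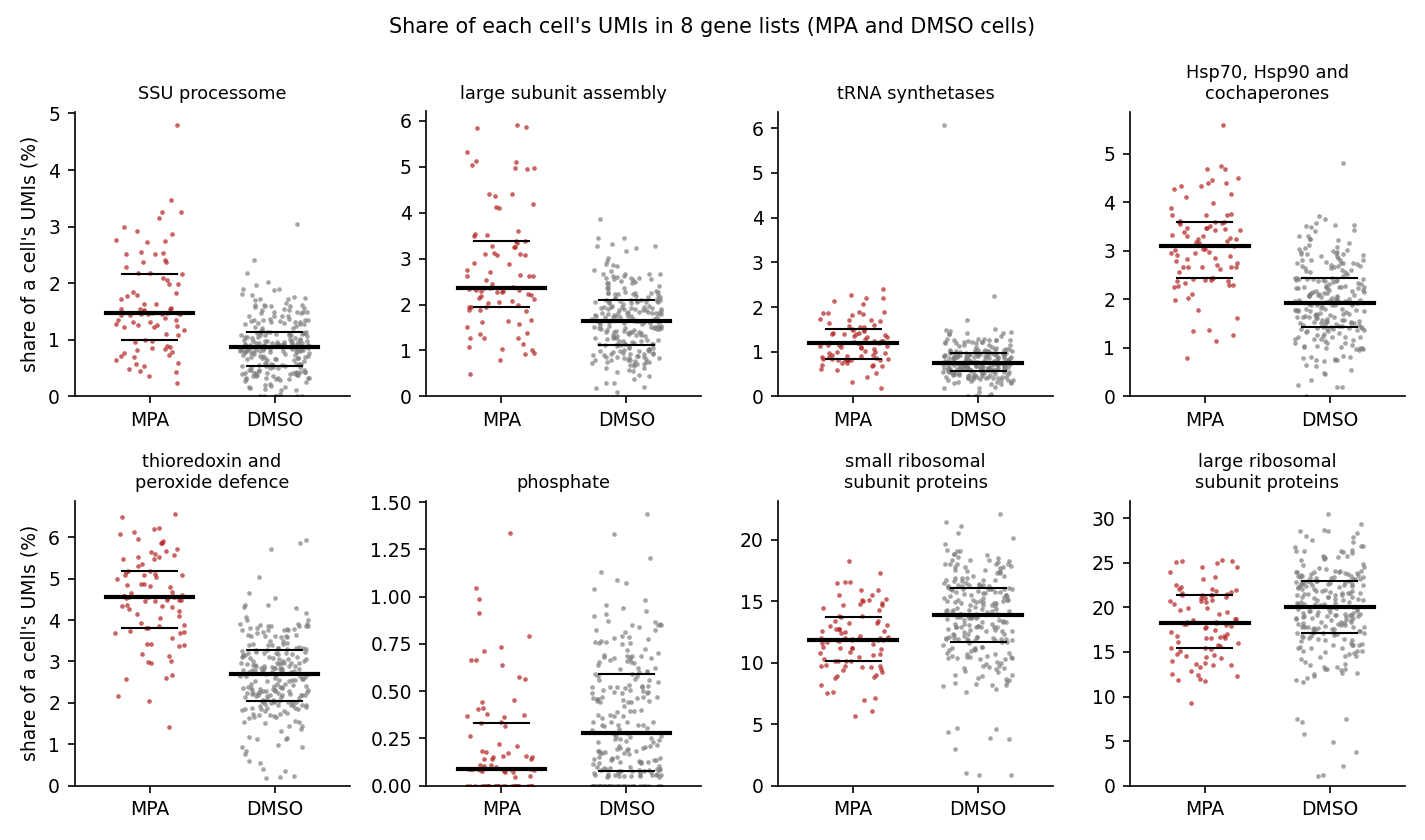
Share of each cell's UMIs (%, vertical axis) in 8 gene lists for 85 MPA cells and 233 DMSO cells. Points are cells, thick bars medians and thin bars quartiles. The MPA medians are above those of DMSO for the SSU processome (1.47% and 0.87%) and the peroxide list (4.57% and 2.69%) and below them for small subunit ribosomal proteins (11.9% and 13.9%).

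Some of the extreme ratios rested on few cells. *FPS1*, the glycerol channel, had the highest ratio, 2.56 [1.95, 3.19], with 662 CPM in MPA, 197 CPM in MPA + Guanine, 69.2 CPM in Guanine and 112 CPM in DMSO. Its 68 UMIs in MPA came from 14 cells, 42 of them from 1 cell, and the ratio was 1.68 without the top cell of each library. The lowest ratio, -3.20 [-3.97, -2.53], was that of *PHD1*, a transcription factor of pseudohyphal growth, with 175 CPM in MPA and 1610 CPM in DMSO. Of its 501 UMIs in DMSO 451 came from 1 cell, and without the top cells the ratio was -0.12. *YNL143C*, an uncharacterized open reading frame, had 2636 CPM in MPA, 11158 CPM in MPA + Guanine, 5660 CPM in Guanine and 14688 CPM in DMSO (-2.48 [-2.66, -2.30]). There 1339 of 4571 UMIs in DMSO came from 1 cell, but 225 of 233 DMSO cells and 60 of 85 MPA cells held the gene, and the ratio was -2.29 without the top cells. Against the larger of the deposited subclusters of DMSO cells it was -0.82, within 2-fold. The open reading frame *YGR069W*, which the RefSeq table does not annotate, had 9738, 8802, 2860 and 2471 CPM in MPA, MPA + Guanine, Guanine and DMSO (1.98 [1.84, 2.12]), in 70 of 85 MPA cells and 144 of 233 DMSO cells. It was high in both libraries with MPA.

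For several of the genes past 2-fold, lower and higher, the levels stood beside those of a neighbour. *MTG1* (chrXIII:459424-460527, minus strand) had 87.6 CPM in MPA, 482 CPM in MPA + Guanine, 1794 CPM in Guanine and 395 CPM in DMSO (-2.17), and its 3′ end lies 122 bases from that of *SNZ1*, a vitamin B6 synthesis gene on the other strand with 253, 675, 2842 and 521 CPM in the same order (-1.04). Both genes had the same order of libraries, and against the larger DMSO subcluster *SNZ1* had a ratio of 0.91. *NKP1*, a kinetochore protein gene, had 418 CPM in MPA and 1247 CPM in DMSO (-1.58) and ends 135 bases from *RPP2B*, a ribosomal stalk gene with 3347 CPM in MPA and 4463 CPM in DMSO (-0.42). *DUS4*, of tRNA dihydrouridine synthesis (-1.10), ends 172 bases from *RPL31B*, with 2617 CPM in MPA and 2227 CPM in DMSO, and *URA8* ends 59 bases from *SOD1*, with 7180 CPM in MPA and 4839 CPM in DMSO. *YAL037C-A*, at 156 CPM in MPA and 546 CPM in DMSO (-1.81), ends 137 bases from *CDC19*, the pyruvate kinase gene, which was listed at 0 in MPA, Guanine and DMSO. *GDH1* (-1.33) ends 278 bases from *ALD4* (-0.98). Higher genes had such neighbours as well. *TRX2* (1.31), with 4495 CPM in MPA and 1812 CPM in DMSO, ends 100 bases from *SER2*. *SER2* had 175 CPM in MPA and 70.7 CPM in DMSO (1.31), below *TRX2* in both libraries, and was not among the genes compared. *TRM8* (1.30) ends 79 bases from *MGT1* (-1.46). *RPP2B*, *RPL31B*, *SOD1*, *CDC19*, *SER2* and *MGT1* were chosen after their values were seen. Whether reads of one gene were counted for its neighbour was not tested.

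A further 43 genes with at least 50 UMIs in DMSO were listed at 0 in MPA and have no ratio. The most abundant was *PHO12*, an acid phosphatase with a near-identical copy, with 128 UMIs in DMSO, 97 in Guanine and 110 in MPA + Guanine, where 0 UMIs in MPA allow up to 29.2 CPM. It was followed by *YER010C*, *YPR044C*, *DDP1*, a polyphosphatase, and *TMH11*, with between 89 and 105 UMIs in DMSO. At 411 CPM in DMSO, *PHO12* was at least 14.1-fold lower in MPA against that floor of 3 UMIs, if the 0 is a count. Any gene present in a library reached 2 UMIs in some cell of it, so genes may have been filtered on this before deposit and a 0 need not be a count. No gene with 50 or more UMIs was listed at 0 in DMSO, and the largest such count in MPA was 28 UMIs of *EUG1*, a protein disulfide isomerase of the endoplasmic reticulum, 22 of them in 1 cell.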

How the data were processed

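Single-cell RNA-seq was done by yeastDrop-Seq on 4 cultures, 1 library per condition. The authors trimmed reads with Trimmomatic, aligned them with STAR to R64-1-1, counted UMIs with UMI-tools, filtered cells with scater and deposited raw UMI counts per gene and cell. The strand used in counting is not given in the sources used here. In the deposited files each gene with UMIs in a library has at least 1 cell with 2 or more UMIs.

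A gene's CPM is its UMI sum in a library over that library's total, with no pseudocount. Genes with UMIs in both libraries and at least 50 together were compared, and a gene was called past 2-fold. Intervals are exact 95% Poisson (CPM) and binomial (ratio) intervals for counting error only. Library totals were 102788 UMIs (85 cells) in MPA and 311199 UMIs (233 cells) in DMSO. With 1 library a side no p-value was computed. Promoter and coding sequences came from RefSeq R64, which matched 4606 of 4777 gene identifiers, and near-identical copies were found with blastn 2.17.0+. The calculation was tested on simulated data.

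Genes named in the text were the 12 highest and 12 lowest ratios among compared genes with at least 100 UMIs together and 5 in each library, the 3 highest and 3 lowest compared members of each gene list, all members of the lists for GMP synthesis, mating type and the deleted genes, those the study's text names for MPA, and the 5 with the most UMIs in each library among genes listed at 0 in the other. The members and lists were chosen with earlier results of these data known. Alternatives changed the scaling, the minimum, the fold and the cells used, and the ratio without the top cell of each gene was added after seeing the data. Per-sample columns left unused numbered 0. Software was R 4.3.3 with edgeR 4.0.16 for TMM factors, Python 3.11.15, scanpy 1.11.5 for Scrublet, matplotlib 3.10.9 for plots, pandas 2.3.3, scipy 1.17.1 and numpy 2.4.6.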

Additional observations from a re-analysis of the deposited data

Results flagged for a closer look

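*GPP2*, a glycerol-3-phosphate phosphatase, had ratios of opposite sign past 2-fold in the 2 contrasts with MPA. Its log2 ratio was -1.05 for MPA over DMSO, with 8 UMIs (77.8 CPM) in MPA and 50 UMIs (161 CPM) in DMSO and a counting interval of -2.33 to 0.04 that includes 0, and 1.65 for MPA + Guanine over Guanine, with 347 CPM in MPA + Guanine and 111 CPM in Guanine. The difference was not tested, since each library is 1 sample.

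*SAG1*, which MATalpha cells express, lies outside the comparison and had 0 UMIs in MPA and 7 UMIs in DMSO, although the strain is labelled MATa. It was listed at 0 in MPA + Guanine and Guanine. Of the 4 listed MATalpha-specific genes only *SAG1* appeared among the genes measured, whereas all 7 listed MATa-specific genes did.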

How the results depend on the processing

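No paired analysis was possible because each condition has 1 library and the labels carry no replicate numbers. Against 88 genes higher, 55 lower and a median log2 ratio of 0.13, TMM scaling gave 56 higher, 67 lower and a median of 0.013, and centring on the median gave 56 higher, 69 lower and a median of 0. Centring brought *FUN12*, *GCD11*, *NUG1* and all higher tRNA synthetases, among others, within 2-fold. Totals without ribosomal protein genes gave a median of 0.069. With no minimum, 211 of 2118 genes were higher at a median of 0.21. A minimum of 100 UMIs left 681 genes, 40 higher and 32 lower with a median of 0.065, and a minimum of 200 left 341 genes, 18 higher and 14 lower with a median of -0.012. A 1.5-fold threshold gave 294 higher and 147 lower. Without the cells Scrublet called doublets (21 of 85 in MPA and 25 of 233 in DMSO) 93 were higher and 61 lower, of which 63 and 38 were shared with the comparison of all cells, and *FPS1* was at 1.13. Of 273 named genes 40 had another sign in some setting, 38 of them within 2-fold to begin with. The 2 past 2-fold that reversed were *PHD1*, at 0.15 without cells in which 1 gene held over 10% of UMIs and at 0.30 against the larger DMSO subcluster, and *SNZ1*, at 0.91 against that subcluster. For both genes under that subcluster the cause was not tested. Against that subcluster *FUN12*, *GCD11*, *NUG1*, *GLN4*, *FLR1*, *HXT2*, *HXT3*, *HOR7* and *YNL143C* came within 2-fold, and without the called doublets *FUN12*, *CYS3*, *UTH1*, *FCF2*, *URA8*, *ERG3*, *RPL10*, *DUS4* and *SNZ1* did. The medians of the SSU processome, large subunit assembly, chaperone, peroxide, ribosomal protein and phosphate lists kept their sign in all 13 settings. A gene at 0 in MPA can stand for up to 29.2 CPM, which limits what can be said of low genes there.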
